A study of Mus musculus with 31 samples.

Results

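The 2 repressive histone marks H3K27me3 and H3K9me3 were compared in female mouse primordial germ cells at E13.5, where E stands for embryonic day. The comparison used every broad peak list of that stage and sex, 3 of H3K27me3 and 3 of H3K9me3, which is 6 of the 18 peak lists of the series and 55200 of its 265274 peaks. The labels name 31 samples, and the other peak lists come from E10.5 germ cells, pooled over several embryos, and from E13.5 male germ cells. All libraries were labelled wild type, from a C57BL/6 x GOF18delta_PE-EGFP cross, in which a germ-cell EGFP reporter allows sorting by flow cytometry. Each chromatin immunoprecipitation started from 1000 sorted cells, native chromatin cut with micrococcal nuclease, and 250 ng of antibody, and 10% of the chromatin was kept as input. The labels give the sex of the cells and call the tissue primordial germ cells. They name no organ, and peak lists hold no expression with which to check the cell type.

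H3K27me3 is written by Polycomb repressive complex 2 and is known for covering the promoters and gene clusters of developmental regulators, where it can be reversed when a lineage needs them. H3K9me3 is written by the SETDB1 and SUV39H enzymes and is known for repeats, pericentromeric satellite DNA and retrotransposons, where it recruits HP1 proteins. In germ cells of this stage DNA methylation is largely erased, and both marks have been studied as means of silencing that do not need it. The comparison asks where each mark lies in the same kind of cell and where they meet. Positions below follow mm9, and no gene is named at them because the annotation used here is of another build.

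The H3K27me3 lists held 2629, 7839 and 6813 peaks in replicates 1, 2 and 3, and the H3K9me3 lists held 10910, 20290 and 6719. H3K27me3 replicate 1 was the shortest list and H3K9me3 replicate 2 the longest. Sequencing depth is unknown, since the lists carry no read counts, so list length stands in for how much was detected. Peaks were called per library and not on pooled libraries. The peak names give 1 input library as the control of both marks in replicate 1 and likewise in replicate 2, while replicate 3 had an input for each mark. Nothing in the labels ties replicates to separate animals. P-values here therefore speak only of the spread among these 6 libraries, and that spread may be technical. H3K27me3 replicate 1 stood apart in its overlap with H3K9me3, and results that rest on it are given with and without it. With 3 libraries against 3, the smallest p an exact permutation test allows is 0.1.

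Merged peaks of H3K27me3 covered 1.56, 5.22 and 4.13 Mb in replicates 1 to 3, and those of H3K9me3 covered 6.04, 12.2 and 4.28 Mb. The ranges overlapped, because H3K9me3 replicate 3 lay below H3K27me3 replicate 2. The means of 3.64 ± 1.88 Mb for H3K27me3 and 7.51 ± 4.16 Mb for H3K9me3 (SD, n = 3 each) did not differ beyond the spread between libraries (exact two-sided permutation p = 0.2, and 0.4 after Benjamini-Hochberg adjustment over the 6 measures compared in this way). Each mark was therefore compared mainly by the share of its own peak length that lay in a place.

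Most peaks of both marks were short. Median widths were 431, 510 and 469 bp for H3K27me3 and 402, 477 and 476 bp for H3K9me3, and the ranges overlapped (exact permutation p = 0.7, adjusted 0.7). The direction of that difference depends on the library: H3K27me3 medians were 18.3 bp wider on average, but the difference was -1.67 bp without H3K27me3 replicate 2 and -6.50 bp without H3K9me3 replicate 1. Widths at the 90th percentile were 1179, 1342 and 1227 bp for H3K27me3 and 1023, 1127 and 1105 bp for H3K9me3, so that here the H3K27me3 lists all lay higher. Peaks of 1 kb or wider held 37.5, 45.4 and 38.9% of H3K27me3 length against 30.3, 34.6 and 34.3% of H3K9me3 length, again without overlap.

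The widest peaks belonged to H3K9me3. Peaks of 2 kb or wider held 10.8, 14.7 and 11.6% of H3K27me3 length and 8.33, 9.83 and 13.03% of H3K9me3 length (exact permutation p = 0.4, adjusted 0.48). At 5 kb or wider the order turned, with 0.391, 0.513 and 0.327% for H3K27me3 and 2.48, 2.06 and 4.55% for H3K9me3. Only 1, 5 and 2 H3K27me3 peaks reached 5 kb, against 13, 25 and 21 H3K9me3 peaks. The widest H3K9me3 peak of each list spanned 27796, 47699 and 27774 bp, and all of them started on chromosome 11 between positions 3052343 and 3052364. The widest H3K27me3 peaks lay at different places, with 6101 bp at chr17:48052928-48059028 in replicate 1, 5497 bp at chr10:57684206-57689702 in replicate 2 and 7033 bp at chr2:33437420-33444452 in replicate 3.

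Peaks of both marks came in groups. H3K27me3 had 41.2, 55.6 and 47.1% of its gaps between neighbouring peaks under 10 kb, and H3K9me3 had 31.5, 46.7 and 27.1%. Those ranges overlapped, since the longest H3K9me3 list reached the middle of the H3K27me3 range. When peaks less than 10 kb apart were joined into chains, the longest chain was 121.7, 148 and 143 kb for H3K27me3 and 120, 320 and 116 kb for H3K9me3. H3K27me3 peaks touched 950, 1386 and 1472 of the 2652 1-Mb bins of the genome, and H3K9me3 peaks touched 2056, 2291 and 1617, so every H3K9me3 list was spread over more of the genome than every H3K27me3 list.

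**Figure D1:**
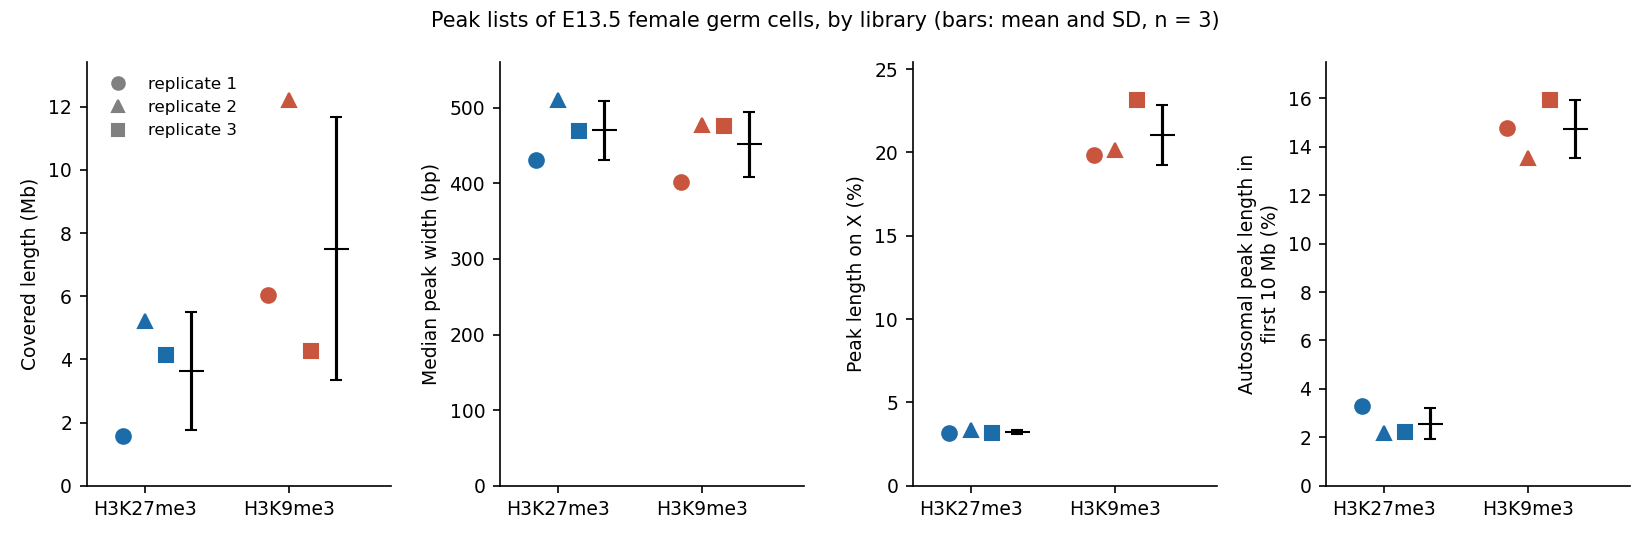
Covered length (Mb), median peak width (bp), share of peak length on chromosome X (%) and share of autosomal peak length in the first 10 Mb of a chromosome (%), with 1 point per library, marker shape for the replicate number, and bars for the mean and SD of 3 libraries. Length and width overlap between the marks, whereas the shares on X (3.16 to 3.33% against 19.9 to 23.1%) and near the chromosome start (2.18 to 3.29% against 13.53 to 15.9%) do not.

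The marks lay in different parts of the chromosomes. Chromosome X, which is 6.31% of the genome, took 3.18, 3.33 and 3.16% of H3K27me3 length and 19.9, 20.1 and 23.1% of H3K9me3 length. Mouse chromosomes have their centromere at the start of the coordinates, and the first 10 Mb of each autosome are 7.69% of autosomal length. No autosomal peak of the 6 lists started before position 3000050. The 7.69% thus counts a stretch without any peak and may be too high as a reference. Those first 10 Mb took 3.29, 2.18 and 2.22% of autosomal H3K27me3 length but 14.8, 13.53 and 15.9% of autosomal H3K9me3 length. Relative to the genome, H3K27me3 was thus low and H3K9me3 high in both places, and no library of one mark overlapped the other. Both exact permutation tests gave p = 0.1, the smallest possible, and 0.3 after adjustment, with mean differences (H3K27me3 minus H3K9me3) of -17.8 and -12.2 percentage points.

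Within X the H3K9me3 lists touched more 1-Mb bins, but they also held more peaks there. H3K9me3 peaks lay in 158, 161 and 136 of the 167 1-Mb bins of X, and H3K27me3 peaks lay in 51, 66 and 79. On X there were 100, 295 and 267 H3K27me3 peaks and 2118, 3943 and 1433 H3K9me3 peaks. The 5 fullest bins held 45.7, 46.7 and 39.8% of the H3K27me3 length on X. For H3K9me3 they held 30.8, 28.4 and 40.2%, so these ranges overlapped. H3K27me3 peaks were narrower on X than on the autosomes in every list, with medians of 337, 472 and 405 bp on X and 434, 511 and 472 bp on the autosomes. H3K9me3 peaks were wider on X in every list, with medians of 423.5, 489 and 517 bp on X and 397, 475 and 462.5 bp on the autosomes. The difference between the marks in this respect was not tested.

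Across all chromosomes, the share of each library's peak length on a chromosome was divided by that chromosome's share of the genome, and the log2 ratios were compared with limma, a linear model that pools the spread over chromosomes, with Benjamini-Hochberg adjustment over 19 autosomes and X. The marks differed on 19 of 20 chromosomes (95.0%), of which 13 were relatively richer in H3K27me3 (65.0%) and 6 in H3K9me3 (30%). Shares of 1 library sum to a constant, so a large share on one chromosome lowers the others. Chromosome 13 was the exception, with a log2 difference of 0.13 ± 0.12 (SE, limma adjusted p = 0.295).

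Chromosome 19 was the most H3K27me3-rich relative to H3K9me3. Its H3K27me3 ratios were 1.80, 1.79 and 1.94 and its H3K9me3 ratios 0.508, 0.587 and 0.503, a log2 difference of 1.72 ± 0.11 (SE, limma adjusted p = 9.35e-09). Chromosome 11 followed at 1.37, chromosome 2 at 1.16 and chromosome 15 at 1.01. Chromosome 5 had the highest H3K27me3 ratio of all, at 1.80, 1.99 and 2.04, with H3K9me3 close to its genome share at 1.02, 1.04 and 1.18. Chromosomes 10 and 14 had the highest adjusted p of the called chromosomes (0.0183 and 0.0166 in limma), and both lost the call without H3K27me3 replicate 1 (limma adjusted p = 0.0753 for each).

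On the other side, chromosome X was the most H3K9me3-rich. Its H3K9me3 ratios were 3.15, 3.19 and 3.67 and its H3K27me3 ratios 0.505, 0.528 and 0.501, a log2 difference of -2.67 ± 0.11 (SE, limma adjusted p = 7.65e-11). The autosomes that leaned to H3K9me3 were chromosomes 7, 1, 12, 16 and 3, at -1.03, -0.91, -0.90, -0.55 and -0.49. On chromosomes 16 and 3 both marks were below the genome share, with mean ratios of 0.445 and 0.543 for H3K27me3 and 0.669 and 0.770 for H3K9me3. Over the 19 autosomes the mean H3K27me3 ratio ran with the number of protein-coding genes per Mb (Pearson r = 0.54, Spearman rho = 0.65), and the H3K9me3 ratio did not show a common direction (r = 0.15, rho = -0.14). These values describe chromosomes that share the same 6 libraries, and gene counts come from a later build.

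**Figure D2:**
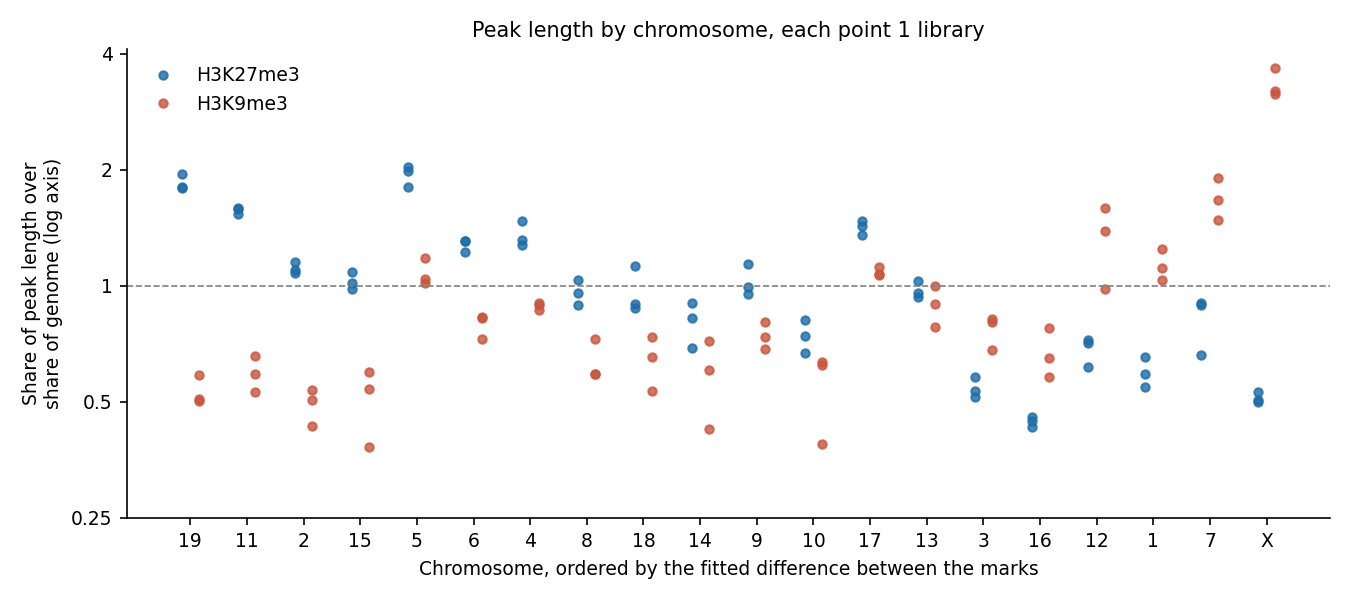
Share of a library's peak length on each chromosome divided by that chromosome's share of the genome (log axis, 1 where they are equal), with 1 point per library, for chromosomes ordered by the fitted difference between the marks. H3K27me3 points lie above H3K9me3 points at the left, led by chromosome 19 (1.79 to 1.94 against 0.503 to 0.587), and below them at the right, where chromosome X reaches 3.15 to 3.67 for H3K9me3.

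At the scale of 1 Mb the marks differed in how much of their length a bin held, although many bins held both. Of 2186 bins with peaks in at least 3 of the 6 libraries, 1251 differed between the marks (57.2%), 441 of them higher in H3K27me3 (20.2%) and 810 higher in H3K9me3 (37.1%), by limma on log2(ppm of a library's peak length + 100) at an adjusted p of 0.05. The median log2 difference over all bins tested was -0.63, and what set it was not tested. Of the bins higher in H3K9me3, 439 held no H3K27me3 peak in any library and 371 held one, and of those higher in H3K27me3, 75 held no H3K9me3 peak and 366 held one. Bins without the other mark passed the filter through 1 mark alone and could only be higher in it. With peaks required in at least 5 libraries the balance turned, to 268 bins higher in H3K27me3 and 115 higher in H3K9me3. Among the 319 bins with peaks in all 6 libraries, 153 were called, 131 higher in H3K27me3 and 22 higher in H3K9me3. Requiring 5 or 6 libraries also selects bins, since it needs peaks of both marks and every H3K27me3 list touched fewer bins. How far this selection set the balance was not tested. The bins of X were called higher in H3K9me3 in 100 of 154 cases (64.9%), and those of chromosome 11 higher in H3K27me3 in 34 of 90 (37.8%). The count of bins higher in H3K9me3 rests on having all its libraries: it was 267, 256 and 338 without H3K9me3 replicate 1, 2 and 3, and the whole count of called bins was then 683, 653 and 741.

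The bins with the largest difference towards H3K27me3 held almost no H3K9me3. Against a mark at or near 0 the size of a log2 difference is set by the pseudocount of 100 ppm, so these values rank bins and give no fold. The bin chr11:96000001-97000000 held 24188, 13123 and 13899 ppm of H3K27me3 length and 0 ppm in each H3K9me3 library. It passed the filter through H3K27me3 alone, so its direction was fixed in advance and no p-value is given. Its log2 difference was 7.37 ± 0.35 (SE), which was 10.68 with a pseudocount of 10 ppm and 4.12 with 1000 ppm. At chr15:102000001-103000000 the H3K27me3 libraries held 14109, 10603 and 11420 ppm, and only H3K9me3 replicate 2 held any H3K9me3 (17.1 ppm). At chr6:83000001-84000000 the 3 H3K27me3 values lay closest together, at 13092, 14224 and 13384 ppm, and the H3K9me3 libraries held 0, 13.02 and 127 ppm. The other 5 were chr19:44000001-45000000, chr2:33000001-34000000, chr5:118000001-119000000, chr6:52000001-53000000 and chr17:86000001-87000000, with log2 differences between 6.22 and 5.80. Of these, the bin on chromosome 5 held 0 ppm in each H3K9me3 library, so its direction too was fixed in advance.

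Bins with the largest difference towards H3K9me3 lay mostly on X. The bin chrX:4000001-5000000 held 16137, 13023 and 24922 ppm of H3K9me3 length and no H3K27me3 peak. It passed the filter through H3K9me3 alone, so its direction too was fixed in advance and no p-value is given. Its log2 difference was -7.45 ± 0.34 (SE), which was -10.76 with a pseudocount of 10 ppm and -4.20 with 1000 ppm. The bins chrX:30000001-31000000, chrX:31000001-32000000, chrX:3000001-4000000 and chrX:32000001-33000000 were also free of H3K27me3 peaks, with log2 differences between -7.19 and -6.66. The 3 autosomal bins were chr5:95000001-96000000, chr1:85000001-86000000 and chr7:15000001-16000000. Those on chromosomes 5 and 7 held no H3K27me3 peak either, so their direction, like that of the X bins, was fixed in advance. The bin on chromosome 1 held 14743, 13078 and 27605 ppm of H3K9me3, and H3K27me3 replicate 3 alone held a peak there (190 ppm).

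**Figure D3:**
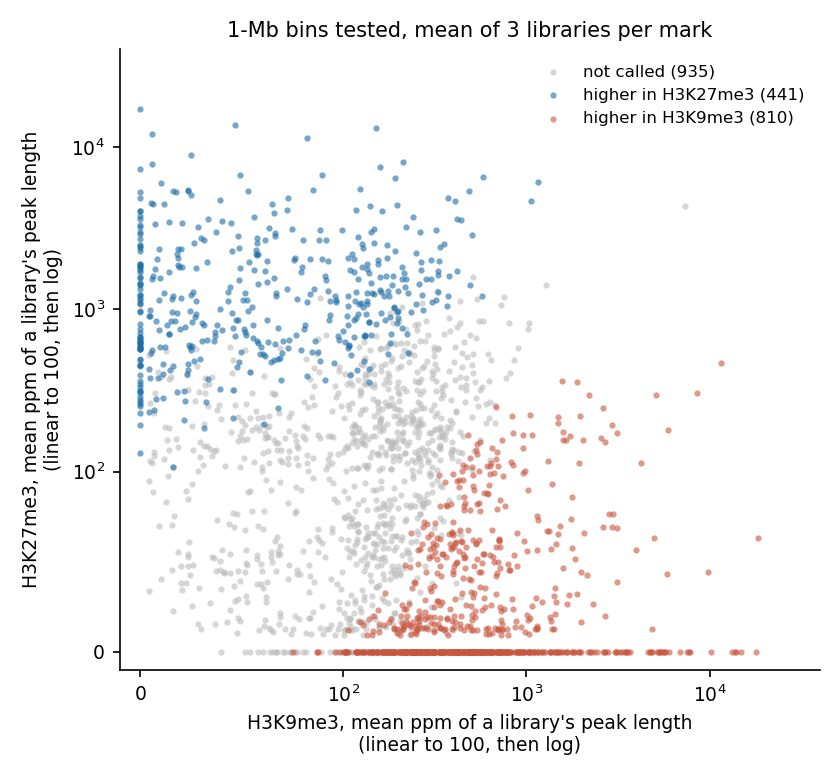
Mean share of a library's peak length in each of the 2186 tested 1-Mb bins, in ppm, H3K27me3 on the vertical and H3K9me3 on the horizontal axis (linear to 100 ppm and logarithmic above), coloured by the limma call. Bins rich in one mark lie along that mark's axis, 810 called higher in H3K9me3 and 441 called higher in H3K27me3. Of these, 439 and 75 held no peak of the other mark and could only be higher in their own. Above 1000 ppm in both marks lie 4 bins.

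Bins that held most of one mark held little of the other. The 5% of autosomal 1-Mb bins richest in H3K27me3 held 50.6 ± 3.17% of its autosomal length (SD, n = 3) but 2.74 ± 0.13% of the H3K9me3 length of the same-numbered library. The 5% richest in H3K9me3 held 43.4 ± 7.84% of its length and 2.60 ± 0.51% of the H3K27me3 length. Both shares of the other mark lay below the 5% that an even spread would give. Over 2380 autosomal bins with a peak, the Spearman correlation of the marks in same-numbered libraries was -0.15, -0.27 and -0.21, against 0.59 to 0.75 between libraries of 1 mark. These correlations are across bins, which are not independent, and serve as description.

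Libraries resembled each other by mark at the level of bases as well. The Jaccard index, the shared length over the joint length of 2 lists, was 0.0817 to 0.136 between H3K27me3 libraries and 0.0834 to 0.0891 between H3K9me3 libraries. Between the marks it was 0.00137 to 0.0122 over the 9 pairs. The difference of the means, 0.0892, gave a one-sided exact permutation p of 0.1, the smallest possible. Even within a mark most bases were therefore not shared, and lists of unequal length set a ceiling on this index.

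The genome was then divided into 10-kb bins, and a bin was taken as held by a library with at least 1 kb of peaks in it. All 3 H3K27me3 libraries held 303 bins, and 296 of these (97.7%) had no H3K9me3 peak in any of the 3 H3K9me3 libraries, against 92.2% of all 264164 bins. All 3 H3K9me3 libraries held 255 bins, and 237 of these (92.9%) had no H3K27me3 peak at all, against 97.0% of all bins. The differences from these background shares were not tested. The bins of 1 mark are 1.05% and 0.845% of the 28062 bins that carry a peak in any of the 6 lists. The counts depend on the most selective lists: without H3K27me3 replicate 1 there were 799 bins of H3K27me3 alone, and without H3K9me3 replicate 1 or 3 there were 577 and 697 of H3K9me3 alone.

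Bins of H3K27me3 alone were scattered over all 19 autosomes and X, in 210 runs, of which 155 were a single bin. Chromosome 5 held 35 of the bins and chromosome 6 held 32, while X held 6 (2.03%). The longest run was chr6:52110001-52200000, where H3K27me3 covered 18.2, 37.5 and 26.5 kb of 90 kb. The next was chr15:102760001-102840000, with 15.8, 39.8 and 20.9 kb of 80 kb. Then came chr6:83350001-83400000 (19.02 ± 9.41 kb, SD, n = 3) and chr9:91240001-91290000 (14.8 ± 3.50 kb). The remaining long runs were chr5:92520001-92560000, chr5:120100001-120140000, chr5:140010001-140040000 and chr11:96170001-96200000, which carried 10.503 to 12.9 kb on average. In all 8 of these runs replicate 1 held less than replicate 2.

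These long runs held many separate peaks. The longest run held 22, 33 and 30 separate H3K27me3 peaks in the 3 lists. The score in column 9 of the lists is the authors' own value per peak, of unknown scale, and is used here only to rank peaks within a list. The best score in that run ranked 272 of 2629, 99 of 7839 and 265 of 6813. Over the 8 named runs there were 7 to 22, 11 to 33 and 8 to 30 peaks per run in replicates 1 to 3, and the best score of a run ranked between 272 and 665, 99 and 752, and 141 and 896.

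Bins of H3K9me3 alone were concentrated on fewer chromosomes. X held 90 of the 237 (38.0%) and chromosome 1 held 42. The bins fell into 148 runs, most of them a single bin, as were most runs of H3K27me3 alone. Whether the marks differ in how their bins group along a chromosome was not tested. The longest run was chr1:85220001-85350000, where H3K9me3 covered 55.4, 85.5 and 65.2 kb of 130 kb. At chrX:30440001-30530000 it covered 24.9, 30.4 and 25.8 kb of 90 kb. At chr11:3020001-3100000, the place of the widest peaks, it covered 70.4, 71.7 and 70.4 kb of 80 kb in 4 peaks per list, the fullest coverage and the smallest spread of any long run. The other 5 were chrX:31930001-32010000, chr1:87460001-87530000, chrX:32070001-32120000, chrX:3190001-3240000 and chr1:84960001-85010000, with 17.8 to 33.0 kb on average.

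The same bins were looked up in the other groups, beside the share of all 10-kb bins that each library holds. Of the 296 bins of H3K27me3 alone, the H3K27me3 libraries of E10.5 held 289, 148 and 293 (1.95, 0.246 and 3.28% of all bins), and those of E13.5 male cells held 187, 9 and 226 (0.300, 0.00644 and 0.476% of all bins). Male replicate 2, a very short list, held 3.04% of the 296 bins and the other 5 libraries 50% or more. The male H3K9me3 libraries held 1, 0 and 0 of them, while they held 8.67, 5.84 and 3.28% of all bins. The E10.5 H3K9me3 libraries held 0, 4 and 1 of them, while they held 0.226, 4.95 and 0.0291% of all bins. Replicates 1 and 3 hold so few of all bins that such counts say little. Of the 237 bins of H3K9me3 alone, the male H3K9me3 libraries held 98.7, 99.2 and 96.2%. Those of E10.5 held 24.1, 99.2 and 15.6%, beside the 0.226, 4.95 and 0.0291% of all bins given above. In the other groups' H3K27me3 libraries, which hold 0.00644 to 3.28% of all bins, at most 1 of the 237 was held.

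Peaks of one mark lay far from the other mark. The median distance from an H3K27me3 peak to the nearest H3K9me3 peak of the same-numbered library was 303, 236 and 525 kb in replicates 1 to 3. In the reverse direction it was 1170, 916 and 740 kb. By contrast, the median distance to the nearest peak of the same mark in another library was 0.162 to 13.4 kb for H3K27me3 and 0.965 to 18.4 kb for H3K9me3. A longer target list shortens such distances, so the same was computed with the 2629 top-scored peaks of every list. The medians were then 1005 ± 182 kb from H3K27me3 to H3K9me3 and 1413 ± 355 kb in reverse (SD, n = 3 each), against 4.60 ± 0.71 and 13.003 ± 3.23 kb within the marks (SD over 6 ordered pairs each, which share libraries).

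Only a small part of the peaks had the other mark nearby. Within 10 kb of an H3K9me3 peak lay 11.8, 2.87 and 1.88% of H3K27me3 peaks, and replicate 1 stood above both others. Within 10 kb of an H3K27me3 peak lay 2.91, 1.01 and 2.13% of H3K9me3 peaks. Within 10 kb of the same mark in another library, in contrast, lay 47.2 to 80.9% of H3K27me3 peaks and 42.1 to 77.7% of H3K9me3 peaks. No same-numbered pair of different marks reached the range seen within a mark.

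The length of one mark per kb was measured in bands around the peaks of the other and divided by its mean over the genome, with the 3 regions that carry both marks (described below) left out. Around H3K9me3 peaks, H3K27me3 stood at 0.13 ± 0.07 of its genome mean in the first kb and at 0.18 ± 0.04 between 1 and 10 kb (SD, n = 3 each). It was 0.54 ± 0.08 between 10 and 100 kb, 1.18 ± 0.18 between 100 and 1000 kb, and 1.48 ± 0.18 beyond. On the H3K9me3 peaks themselves it stood at 20.3, 0.552 and 2.81 of its genome mean in replicates 1 to 3, so it was above its mean there in 2 of 3 replicates and below it in replicate 2. From the edge of a peak out to 100 kb it was below its mean in every replicate.

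Around H3K27me3 peaks, H3K9me3 was low over a longer span but less so close by. It stood at 0.44 ± 0.13 of its genome mean between 1 and 10 kb, 0.62 ± 0.08 between 10 and 100 kb, 0.79 ± 0.02 between 100 and 1000 kb and 1.60 ± 0.28 beyond (SD, n = 3 each). In the first kb the libraries disagreed, with 2.39 in replicate 1, 0.994 in replicate 3 and 0.260 in replicate 2. On the H3K27me3 peaks themselves the ratio is by its construction that given above. Because X is rich in H3K9me3 and poor in H3K27me3, the same was measured on the autosomes alone. There H3K9me3 around H3K27me3 was 0.38 ± 0.09, 0.66 ± 0.06, 0.89 ± 0.02 and 1.40 ± 0.21 in the 4 outer bands, H3K27me3 around H3K9me3 was 0.15 ± 0.08, 0.21 ± 0.04, 0.56 ± 0.08, 1.15 ± 0.17 and 1.44 ± 0.17 in the 5 bands off the peaks, and the value on the peaks was 21.8, 0.553 and 2.95 in replicates 1 to 3. The order of the bands off the peaks was the same with and without X for H3K27me3, as was that of the 4 outer bands for H3K9me3.

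**Figure D4:**
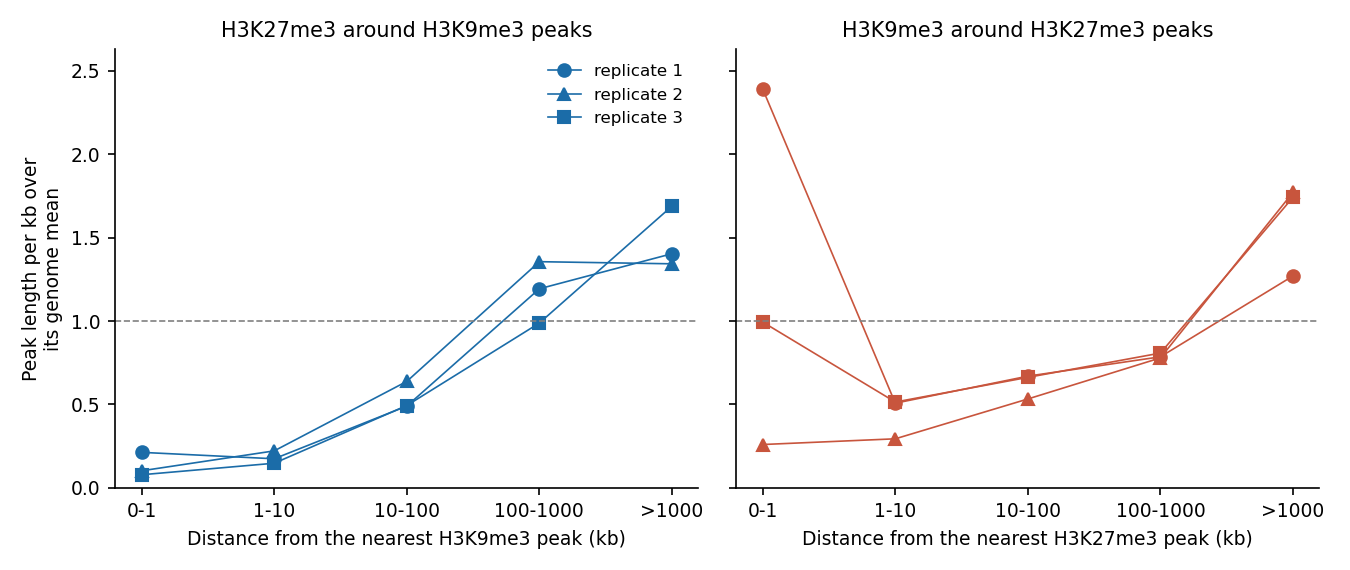
Peak length of one mark per kb, divided by its genome mean, in bands of distance (kb) from the nearest peak of the other mark in the same-numbered library, with 1 line per replicate and the 3 regions with both marks left out; bases on the peaks themselves (20.3, 0.552 and 2.81 in replicates 1 to 3) are not drawn. H3K27me3 rises from 0.13 ± 0.07 within 1 kb of H3K9me3 to 1.48 ± 0.18 beyond 1000 kb, and H3K9me3 rises from 0.44 ± 0.13 at 1 to 10 kb from H3K27me3 to 1.60 ± 0.28, with replicate 1 high (2.39) in the first kb.

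The bases covered by both marks were few. Same-numbered lists shared 86.0, 23.8 and 28.1 kb, in 281, 72 and 81 stretches. That was 5.52, 0.456 and 0.681% of the H3K27me3 length and 1.42, 0.195 and 0.657% of the H3K9me3 length. Against the product of the covered lengths over the genome length, the log2 of observed over expected was 4.59, -0.02 and 2.07, a mean of 2.21 ± 2.31 (SD, n = 3), and 1.03 without replicate 1. H3K27me3 replicate 1 was high with any of the 3 H3K9me3 lists, at 3.16 to 4.80, whereas H3K27me3 replicates 2 and 3 lay between -0.02 and 2.07. An expected length that treats the whole genome as callable is low, and how far this shifts the ratio was not tested.

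Female pairs could not be told apart from those of the other groups in this measure. The difference was 0.16 from E10.5 and 0.08 from male pairs (exact permutation p = 1 for each, also after adjustment over 2). Without replicate 1 these differences were -1.03 and -1.11.

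Peaks that lay on the other mark were short and high in score. There were 281, 72 and 81 such H3K27me3 peaks in replicates 1 to 3 (10.7, 0.918 and 1.19% of each list). Their median widths were 266, 227 and 232 bp, against 491.5, 513 and 474 bp for the rest of each list. Their median scores were 39.9, 41.8 and 40.5, against 19.8, 18.3 and 17.5. Among the 100 top-scored H3K27me3 peaks of each list, 98, 42 and 43 lay on an H3K9me3 peak. The pattern was alike for H3K9me3, whose peaks on H3K27me3 had median widths of 320.5, 307 and 317 bp, against 414, 478 and 478 bp for the rest, and of whose 100 top-scored peaks 75, 35 and 37 lay on H3K27me3.

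The overlapping H3K27me3 peaks of replicate 1 were mostly its own within the female group. Of them, 14.6% and 17.8% overlapped a peak in H3K27me3 replicates 2 and 3, against 48.8% and 39.4% of the remaining replicate 1 peaks. In the male H3K27me3 lists they were found again more often, at 51.2 to 72.2%, against 2.94 to 37.1% of the remaining peaks. In the E10.5 H3K27me3 lists the order varied, with 52.3, 27.05 and 17.1% of the overlapping peaks found again in replicates 1 to 3, against 75.3, 20.9 and 86.2% of the remaining ones. The overlapping H3K27me3 peaks of replicates 2 and 3 were found again in the other female lists at 50.6 to 70.8%, against 13.8 to 34.6% of their remaining peaks. Input coverage at these places was not analysed here, and its part in the overlap was not tested.

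Only 5 of the 10-kb bins carried at least 1 kb of both marks in at least 2 of 3 libraries of each. They were 0.0178% of the bins with any peak, and they carried at least 1 kb of both marks in all 6 libraries. At that rule 929 bins held H3K27me3 and 1111 held H3K9me3, and the product of their shares of all 264164 bins is 3.91 bins. With all 3 libraries of each mark, 303 and 255 bins were held, 5 of them by both, where the product of shares is 0.292. With any 1 library of each, 14 bins had both, and the product of shares is 42.6. Leaving out any 1 library kept the count at 5. Any overlap in place of 1 kb gave 71 bins, and 2 kb gave 2.

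These 5 bins form 3 regions. At chr2:98500001-98510000 the H3K27me3 libraries held 1.92, 1.85 and 1.82 kb and the H3K9me3 libraries 2.45, 2.28 and 1.82 kb. Their best peaks there ranked 1, 1 and 1 by score in the H3K27me3 lists and 2, 1 and 1 in the H3K9me3 lists, with scores of 375 to 440 and 531 to 548, while the median score of the lists was 15.7 to 20.1. The marks lay on the same bases, sharing 1.92, 1.85 and 1.75 kb.

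The region chr9:3000001-3030000, at the low end of the chromosome's coordinates, was the largest. H3K27me3 covered 11.6, 7.35 and 6.43 kb of its 30 kb and H3K9me3 covered 26.98, 21.4 and 23.2 kb. All of the H3K27me3 length lay within H3K9me3 peaks. Its best peaks ranked 3, 3 and 4 in H3K27me3 and 6, 6 and 2 in H3K9me3. At chr4:118220001-118230000 a single peak per list covered 1.32, 1.33 and 1.33 kb of H3K27me3 and 1.28, 1.32 and 1.31 kb of H3K9me3. It ranked 19, 12 and 3 in H3K27me3 and 154, 66 and 71 in H3K9me3. The 3 regions held 17.2, 44.2 and 33.8% of the shared length of the same-numbered lists.

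**Figure D5:**
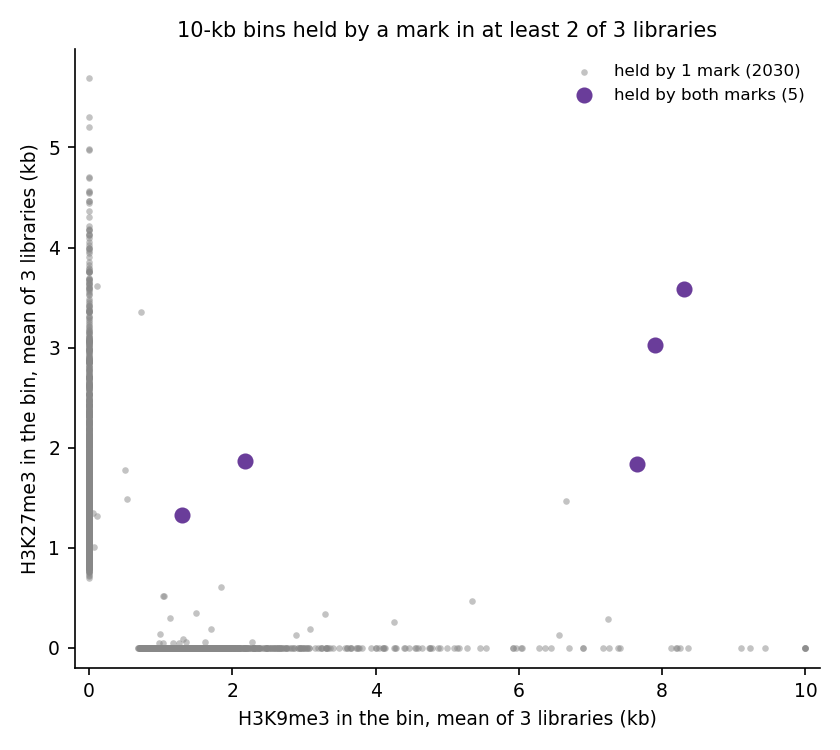
Mean length of peaks (kb, 3 libraries per mark) in each 10-kb bin held by a mark in at least 2 of 3 libraries, H3K27me3 on the vertical and H3K9me3 on the horizontal axis. Of the 2030 bins held by 1 mark, all but 30 lie on an axis with none of the other mark. Any H3K9me3 lay in 12 of the 929 bins held by H3K27me3, where 92.2% of all bins lack it. Any H3K27me3 lay in 28 of the 1111 bins held by H3K9me3, close to the background, since 97.0% of all bins lack it. The 5 bins held by both, in 3 regions, are in both counts and stand away from both axes.

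The same 3 regions had peaks of both marks in the other groups. At chr4:118220001-118230000 all 12 other libraries had peaks, from 0.651 to 1.33 kb. At chr9:3000001-3030000 the other H3K27me3 libraries held 7.20 to 21.2 kb and the other H3K9me3 libraries 10.05 to 29.99 kb. At chr2:98500001-98510000 all but 1 of them had peaks, the exception being H3K9me3 of E10.5 replicate 1, which had none. The regions with both marks in female cells thus had peaks of both marks in the other groups too, though not 1 kb in every library. Input coverage at these regions was not analysed, and its part in these peaks was not tested.

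Below the 1-kb rule, 35 stretches lay in peaks of all 6 female lists, 13.8 kb together. The 3 regions contained 13 of them, with 8.85 kb. The other 22 were 149 to 380 bp long (median 211.5 bp), were spread over 14 chromosomes and included 2 on X. Of the 35 stretches, 13 lay at least in part in peaks of all 18 lists of the series, 3 of these outside the regions with both marks.

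A further 9 bins reached 1 kb of each mark in at least 1 library without meeting the rule. The bin chr8:56200001-56210000 was held by all 3 H3K27me3 libraries (2.58, 3.88 and 3.61 kb) and had 0.5, 1.17 and 0.525 kb of H3K9me3. At chr17:39980001-39990000 the H3K9me3 libraries held 4.73, 5.75 and 5.56 kb and H3K27me3 replicate 3 alone had 1.40 kb. The bin chr9:3030001-3040000, next to the region on chromosome 9, held 3.77, 0.307 and 0.306 kb of H3K27me3 and 6.70, 6.64 and 6.64 kb of H3K9me3. These 3 were singled out after their values were seen. The other 6 lay on chromosomes 2, 8, 9, 13 and 16.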

How the data were processed

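Broad peak lists of 6 E13.5 female libraries were analysed, 3 per mark, grouped by their titles. Sequencing was 100-bp paired-end, per the labels' protocols. MACS2 2.1.0, BWA 0.7.5a, CASAVA 1.8.4, deepTools 3.3.0, SAMtools and Picard appear in the submitters' processing notes without a stated role, as does the build mm9. The deposited score columns were made by the authors, on a scale not given in the sources used here (column 9 exceeded column 8 in 100% of peaks), and served only to rank or filter peaks within a list. For peak thresholds the same holds.

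Members, lists and tests were chosen with earlier results of these data known. Overlapping peaks were merged, and 8 mitochondrial peaks were left out. The genome length, 2641.51 Mb, adds up the last peak end of each chromosome. Library measures were tested by exact two-sided permutation over all 20 assignments. Chromosome shares (pseudocount 0.1 percentage points) and 1-Mb bins (log2(ppm + 100), peaks in at least 3 libraries) were tested with limma 3.58.1 (R 4.3.3), at an adjusted p of 0.05, after a check on simulated data. Other values came from Python 3.11.15. Regions were named by rule: all runs of bins with both marks (up to 12), the 8 longest runs of bins of 1 mark, per direction the 8 most changed called 1-Mb bins, the widest peak per list, and X, Y and called chromosomes. A GRCm38 annotation gave only gene counts per chromosome, so the planned naming of genes and promoter counts were not run, and no sequence is shown. Alternatives covered left-out libraries, score filters, equal peak numbers, other widths, bins and pseudocounts, and a replicate block. Same-numbered libraries of replicates 1 and 2 share an input per the peak names, but no label ties the numbers, and same-numbered libraries did not deviate together, so the fit has no block.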

Additional observations from a re-analysis of the deposited data

Results flagged for a closer look

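Peaks on the mitochondrial genome lay outside the comparisons. Chromosome Y was left out of the fit over chromosomes but counted in the measures over the whole genome. Of its 1-Mb bins 2 were tested, and both were called higher in H3K9me3. They passed the filter through H3K9me3 alone, so this direction was fixed in advance. Libraries labelled female had a few H3K9me3 peaks on Y, 6 in replicate 1, 5 in replicate 2 and 6 in replicate 3, and no H3K27me3 peak. They were 167 to 661 bp wide and held 0.0388, 0.0149 and 0.0443% of H3K9me3 length. H3K9me3 replicate 2, the longest list, also had 7 peaks on the mitochondrial genome, against 1 in replicate 3 and none in the other 4 libraries.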

How the results depend on the processing

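Of the alternatives to the main comparisons, 164 kept the direction and the size or side of the threshold, 30 moved and 8 reversed. Of those for single chromosomes and 1-Mb bins, 329 held and 3 lost the call. With 1 library left out, the difference in median width ran from -6.50 to 37.8 bp, called 1-Mb bins from 653 to 1191 and those higher in H3K9me3 from 256 to 779, bins of H3K27me3 alone from 296 to 799 and of H3K9me3 alone from 237 to 697. Shared length (log2) against E10.5 then ran from -1.03 to 1.27 and against male pairs from -1.11 to 1.20. Chromosome 14 also lost its call without H3K9me3 replicate 3 (limma adjusted p = 0.0503). Keeping peaks at or above each list's median score gave 814 called 1-Mb bins (282 and 532 by direction), median distances of 560 kb from H3K27me3 and 1418 kb from H3K9me3, 3.19% of H3K9me3 peaks within 10 kb and 111 bins of H3K27me3 alone. The top 2629 peaks of each list gave a width difference of 104.7 bp (exact permutation p = 0.2), median distances of 1005 and 1413 kb, 5.81%, a shared length of 4.95 and -1.28 against male pairs. Merged lists of the other mark gave 170 kb, 432 kb and 4.26%. Peaks in at least 5 libraries gave 383 called bins (268 and 115). Peaks of 5 kb or wider gave a difference of -2.62 percentage points, and the richest 1% of bins gave -2.70 points against 5.26 at 5%. Any overlap gave 71 bins with both marks and 2 kb gave 2, with 79 and 90 bins of 1 mark. Without the regions with both marks, an alternative chosen after seeing the data, the difference from male pairs was -0.24. The cause of these changes was not tested.

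Same-numbered libraries did not deviate together (correlations of -0.03, -0.003 and -0.03 over 1-Mb bins). A replicate block gave 1247 called bins (454 and 793) and 19 chromosomes, so it moved no count by over 1.5 times. Depth is unknown, so an absent peak is not an absent mark.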
